A study of Drosophila melanogaster with 3 samples.

Results

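The genes described are 10 of the 17278 genes measured in larval salivary glands of Drosophila melanogaster, the fruit fly: msl-1, msl-2, msl-3, mle, mof, Clamp, lncRNA:roX1, lncRNA:roX2, Sxl and dsx. They were taken by gene symbol as the fly's dosage compensation and sex determination genes, and all 10 had a row in the deposited table. The 3 libraries form 1 control group of wild-type glands from third-instar (L3) larvae kept at 25 °C, each made from 50 pooled glands. The sample titles name an Oregon stock, whereas the genotype field reads yw. The sex of the larvae is not given in the labels. No second genotype or treatment is compared, so levels are described within this tissue, and nothing in the labels says that the libraries came from separate cultures or animals.

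In the fly, males carry a single X chromosome and raise its transcription with the MSL complex, which joins the proteins of msl-1, msl-2, msl-3, mle and mof to a noncoding roX RNA. Sxl is the switch upstream. Its RNA is spliced in females to give an RNA-binding protein, which blocks msl-2 and steers the splicing of tra, whose product in turn directs the splicing of dsx into its female form. Most of these genes are transcribed in both sexes and differ between them in splicing or translation, which a single value per gene cannot show. The roX RNAs are the exception, since they accumulate in males.

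Levels are in FPKM (fragments per kilobase of gene, scaled to library depth), as the authors computed them, and the number of fragments behind each was recovered from the values. Recovered fragments outside rRNA-named genes, those with rRNA in their symbol, numbered 678714, 874004 and 1185541 in replicates 1, 2 and 3. The rRNA-named genes took 55.0%, 41.4% and 24.6% of all fragments. The glue genes Sgs3, Sgs4, Sgs5, Sgs7 and Sgs8 and the gland regulators sage, fkh and CrebA, 8 defining genes of the tissue, were all at 1 FPKM or more in every library. So were all 6 fat body genes listed, whose summed level was 2882, 4100 and 4273 FPKM in replicates 1, 2 and 3. Among 4 hemocyte genes, summing to between 13.1 and 30.1 FPKM, 2 were at that level. None of 4 imaginal disc genes, summing to between 1.04 and 2.63 FPKM, reached it in every library. The part of these tissues in the levels given here was not tested.

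Of the 10 genes, 6 were at 1 FPKM or more in every library, namely Clamp, Sxl, mle, msl-1, msl-3 and msl-2. That limit was passed by 33.1% of all genes and by 40.1% of protein-coding genes. Another 2 members, mof and dsx, were above 0 in every library, and both roX RNAs were listed at 0 in all of them. Over the 10 genes the median of the mean log2(FPKM + 1) was 2.02, against 0.37 over all genes and 0.73 over protein-coding genes. The members together had 550 fragments, with 127, 181 and 242 in replicates 1, 2 and 3. Their summed level was 53.4, 53.5 and 53.5 FPKM in the same order. In bulk glands, a low level from fewer expressing cells and one from less RNA per cell cannot be told apart.

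**Figure D1:**
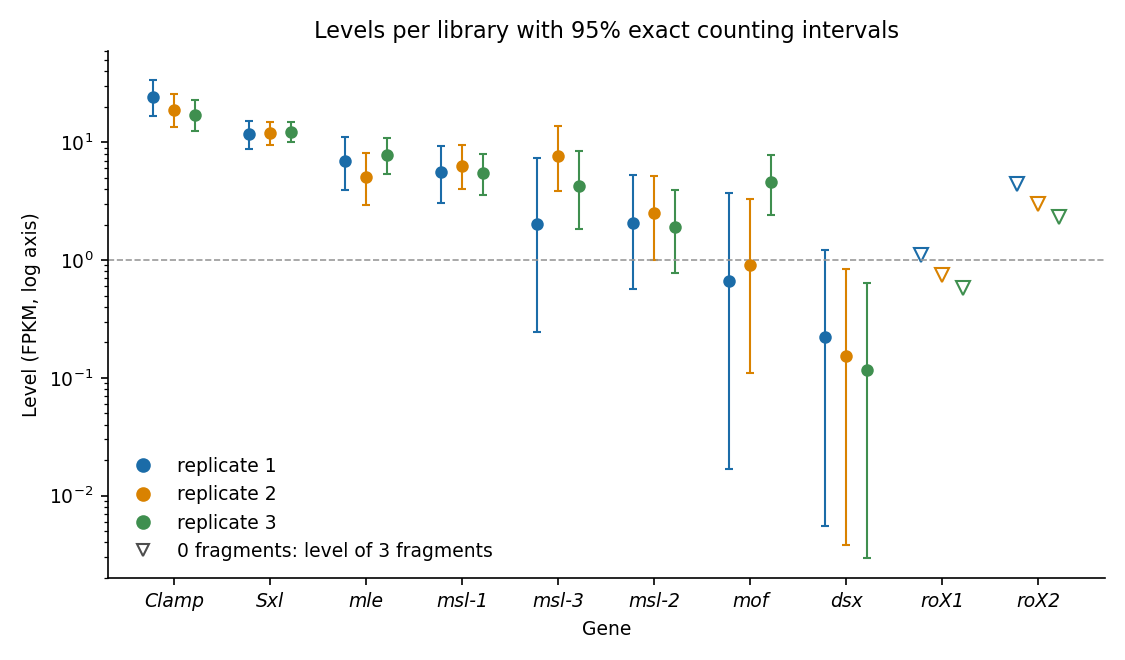
Level of each gene in FPKM on a log axis for the 3 libraries, with 95% exact Poisson intervals from recovered fragments. Open triangles mark the level of 3 fragments for genes with 0 fragments, and the dashed line marks 1 FPKM. Clamp lies highest at a mean of 20.1 FPKM, Sxl shows the tightest agreement between libraries, and both roX genes have triangles only.

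Neither roX RNA was detected in any library. lncRNA:roX1 (FBgn0019661, BDGP6.54 chromosome X, 3857230 to 3862697, minus strand) encodes the larger RNA of the pair, with 5468 exon bases in the annotation. It had 0 fragments in each of the 3 libraries. With 3 fragments as the limit that a count of 0 allows in each library, its level could be up to 1.10, 0.754 and 0.580 FPKM in replicates 1, 2 and 3. These limits cover counting error and take the exon length from the annotation used here, which may not be that of the authors.

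lncRNA:roX2 (FBgn0019660, X, 11579065 to 11580432, plus strand) is the smaller RNA, with 1368 exon bases. It too had 0 fragments in every library. Its short length makes the limits wider, at 4.39, 3.01 and 2.32 FPKM in replicates 1, 2 and 3. Taken library by library, these limits lay above the level of msl-2.

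Set against other members within each library, the roX1 limit lay well below the values of Clamp, Sxl, mle and msl-1. The ratios given here divide the value of a member by the roX limit, so they leave out the counting error of that member. Clamp stood at 22.0-fold, 25.2-fold and 29.6-fold the roX1 limit in replicates 1, 2 and 3. The ratio ran from 10.7-fold to 21.0-fold for Sxl and from 6.28-fold to 13.4-fold for mle. It ran from 5.08-fold to 9.44-fold for msl-1 and from 1.90-fold to 3.32-fold for msl-2. The exact Poisson intervals of Clamp, Sxl, mle and msl-1 began above the roX1 limit in every library. The msl-2 ratio rests on 4 to 7 fragments of msl-2 in a library. In replicate 1 the interval of msl-2 began at 0.567 FPKM, under the roX1 limit of 1.10 FPKM. In replicates 2 and 3 it began above that limit. For roX2 the ratios were lower, from 5.51-fold to 7.40-fold for Clamp and from 2.68-fold to 5.26-fold for Sxl. The intervals of both genes began above the roX2 limit in every library. For mle the ratio ran from 1.57-fold to 3.34-fold. In replicates 1 and 2 the mle interval began at 3.94 and 2.93 FPKM, under the roX2 limits of 4.39 and 3.01 FPKM. In replicate 3 it began above the limit. For msl-1 the ratio ran from 1.27-fold to 2.36-fold. In replicate 1 its interval began at 3.05 FPKM, under the roX2 limit of 4.39 FPKM. In replicates 2 and 3 it began above that limit.

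A value of 0 is common in this table. Of all genes, 41.5% were listed at 0 in every library, and of the 2721 genes annotated as ncRNA, 80.4% were. The zeros of both roX genes are read against that background. Sharing of exons with other genes touched little of either: roX1 had 92.8% of its exon bases to itself, the rest lying on the opposite strand to exons of ec, and roX2 shared none with any gene of the table.

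Some genes beside the roX loci gave fragments. Within 20 kb of roX1 lie 4 genes of the table, and 2 of them were at 1 FPKM or more in every library. Over all genes that share was 33.1%. ec, whose exons overlap roX1 on the other strand, had 32.9, 22.1 and 12.6 FPKM in replicates 1, 2 and 3. VhaAC39-1, which encodes a subunit of the vacuolar proton pump, had 204, 177 and 159 FPKM. yin, the nearest non-overlapping gene at a distance of 269 bases, had 0, 1.26 and 0 FPKM from 3 fragments.

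Around roX2, 6 of 19 genes were at 1 FPKM or more in every library and 11 were listed at 0. Over all genes these shares were 33.1% and 41.5%. CG11695, which ends 259 bases from roX2, had 4.45, 4.58 and 6.46 FPKM in replicates 1, 2 and 3. e(y)2, a gene of a transcription coactivator and mRNA export factor, had 23.9, 16.4 and 44.2 FPKM, and Polr2A, the gene of the largest subunit of RNA polymerase II, had 33.0, 18.0 and 19.5 FPKM. On the other side nod, a kinesin-like gene 340 bases away, had 0, 1.12 and 0.432 FPKM from 3 fragments. The highest neighbour averaged 180 FPKM for roX1 and 28.1 FPKM for roX2, while other neighbours of each were at or near 0.

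**Figure D2:**
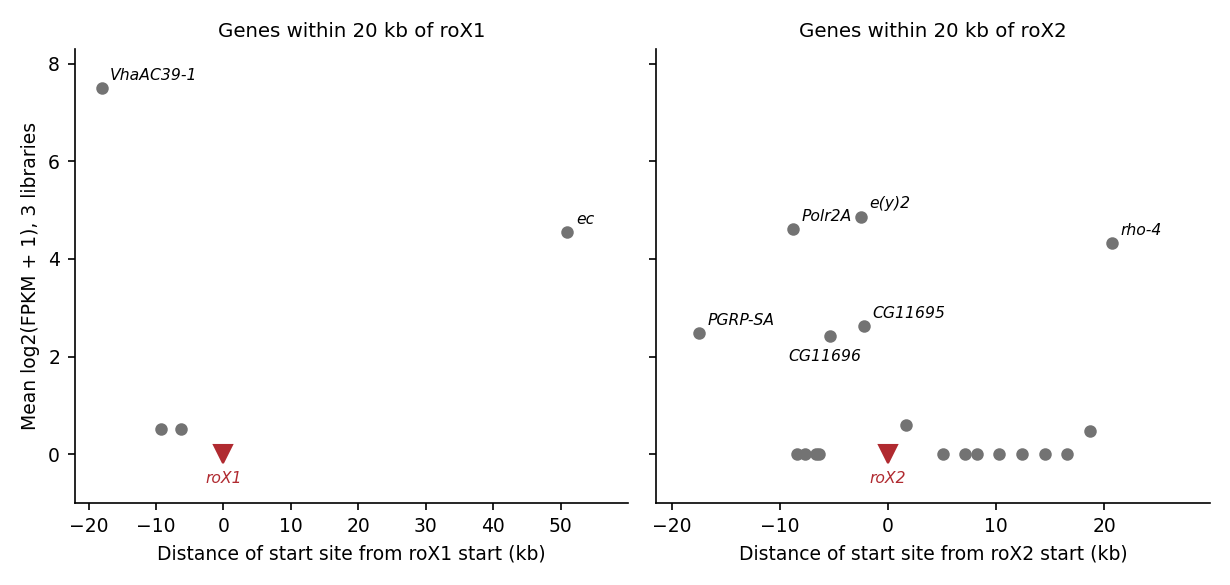
Mean log2(FPKM + 1) over 3 libraries of genes lying within 20 kb of roX1 (left) and roX2 (right), against the distance of their start sites from the roX start site in kb, positive in the direction of roX transcription. Red triangles mark the roX genes at 0; ec overlaps roX1 although it starts 51.0 kb away.

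Regarding the sex of the pooled larvae, the roX values are the members that bear on it at the level of whole genes. No library had a roX fragment. The series as analysed here holds no library from glands of known sex, so the roX level of a male gland is not known on this scale, and the zeros were not turned into a share of males. Whether the pools held female larvae alone was not tested.

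Genes of the Y chromosome, which males carry, gave the same kind of value. Of 113 genes annotated on Y, 112 were listed at 0 in every library, and 23 of the 113 are protein-coding. At 0 in every library were 41.5% of all genes, 80.4% of ncRNA genes and 4461 of 13829 protein-coding genes. The Y gene above 0 was CR41506, a pseudogene, with 1 fragment in replicate 3 (0.965 FPKM). All 11 named Y genes looked up, among them kl-2, kl-3 and kl-5, had 0 fragments. The limits for kl-3, a long dynein gene, were 0.432, 0.297 and 0.229 FPKM in replicates 1, 2 and 3. Most Y genes are known for their work in the testis, so the gland of a male might not express them. Gonad tissue left little trace as well: of 6 germline and gonad genes, vas, nanos and piwi were at 0 in every library, and all 6 together had 10 fragments.

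Among the genes for proteins of the complex, mle and msl-1 had the highest means, although msl-3 exceeded both in replicate 2 at 7.68 FPKM. mle (FBgn0002774, 2R, 5974857 to 5980778, minus strand) encodes the RNA helicase that remodels and loads roX RNA. It had 6.90, 5.04 and 7.75 FPKM in replicates 1, 2 and 3, a mean of 6.56 ± 1.39 (SD, n = 3) from 67 fragments. msl-1 (FBgn0005617, 2L, 18683720 to 18688800, minus strand) encodes the scaffold on which the other subunits assemble. It had 5.58, 6.30 and 5.48 FPKM, a mean of 5.78 ± 0.447 from 63 fragments. The libraries of both genes overlapped in range, and neither shared exon bases with another gene.

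msl-3 (FBgn0002775, 3L, 7123213 to 7125533, minus strand) encodes the chromodomain protein with which the complex reads methylated histone H3 on active genes. It had 2.03, 7.68 and 4.29 FPKM in replicates 1, 2 and 3, a mean of 4.67 ± 2.84 (SD, n = 3) from 21 fragments. Replicate 1 was low with 2 fragments, but its 95% exact interval of 0.246 to 7.34 FPKM overlapped that of replicate 2, 3.83 to 13.7 FPKM.

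msl-2 (FBgn0005616, 2L, 3462218 to 3466112, minus strand) encodes the RING-finger subunit whose absence keeps the complex from forming in females, where Sxl protein represses its RNA. It had 2.08, 2.50 and 1.93 FPKM in replicates 1, 2 and 3, a mean of 2.17 ± 0.299 (SD, n = 3) from 18 fragments. Fragments of msl-2 were found in every library, 4, 7 and 7 of them. The 95% exact interval of replicate 1, 0.567 to 5.33 FPKM, covered the values of the others. As TPM with rRNA-named genes in the sum the values were 0.761, 1.33 and 1.13. The table does not show whether it was translated.

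mof (FBgn0014340, X, 5873840 to 5876853, minus strand) encodes the acetyltransferase that marks histone H4 on the male X and, in the NSL complex, at promoters in both sexes. It had 0.664, 0.912 and 4.56 FPKM in replicates 1, 2 and 3, from 1, 2 and 13 fragments. Replicate 3 stood above the others, and the mean of 2.05 ± 2.18 (SD, n = 3) fell to 0.788 without it. The 95% exact interval of replicate 3, 2.43 to 7.80 FPKM, still overlapped those of replicate 1, 0.0168 to 3.70, and replicate 2, 0.110 to 3.30. Replicate 3 also had the smallest rRNA share, and the part of that in the difference was not tested.

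Summed over the 5 subunit genes, the level was 17.3, 22.4 and 24.0 FPKM in replicates 1, 2 and 3. Per exon base, mle had 3.08 times the fragments of msl-2 (95% exact interval 1.81 to 5.51) and msl-1 had 2.68 times (1.57 to 4.81). Both differences from msl-2 had the same sign in 3 of 3 libraries, at 1.24 ± 0.41 for mle and 1.10 ± 0.04 for msl-1 on the log2(FPKM + 1) scale (SD, n = 3, two-sided exact sign-flip permutation p = 0.25 for each, the smallest that 3 libraries allow). These comparisons were chosen after the values were seen.

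Clamp, the zinc finger protein that binds GA-rich sites and helps bring the complex to the X, had the highest level of the 10. Its gene (FBgn0032979, 2L, 22165720 to 22169143, minus strand) had 24.2, 19.0 and 17.2 FPKM in replicates 1, 2 and 3, a mean of 20.1 ± 3.64 (SD, n = 3) from 122 fragments. It lay above 72.6% of the genes with at least 1 FPKM on average. Of its exon bases, 17.3% are shared with CG42748 on the opposite strand, so with unstranded counting its value carries that uncertainty. The genes whose profile over the 3 libraries was nearest to Clamp, by Euclidean distance of log2(FPKM + 1), were Tsp42Ef (distance 0.066), Spt6 (0.092) and CG31183 (0.098). Tsp42Ef encodes a tetraspanin and Spt6 a transcription elongation factor. Likeness over 3 libraries is a description of level.

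Sxl followed. The gene (FBgn0264270, X, 7074550 to 7098053, minus strand) is annotated with 25 transcripts, made from separate early and late promoters and by splicing that differs between the sexes. It had 11.8, 12.0 and 12.2 FPKM in replicates 1, 2 and 3, a mean of 12.0 ± 0.222 (SD, n = 3) from 240 fragments, the most of any member. The libraries agreed more closely than their counting intervals, which ran from 8.83 to 15.3 FPKM in replicate 1 and from 9.98 to 14.8 FPKM in replicate 3. The closeness depended on the scale: as TPM, values rescaled to the same sum in each library, they were 4.30, 6.34 and 7.16 TPM. Female and male forms of the RNA cannot be told apart in a value per gene.

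dsx, at the bottom of the cascade, was near the limit. It encodes the transcription factors that carry out sex-specific development in those cells that express it. The gene (FBgn0000504, 3R, 7924323 to 7967408, minus strand) had 0.221, 0.152 and 0.117 FPKM in replicates 1, 2 and 3, each value a single fragment over 9167 exon bases. The level that 3 fragments would give was 0.655, 0.450 and 0.346 FPKM, so dsx lay under that limit in every library. Its order against the roX genes cannot be given.

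Ordered by mean FPKM, the 8 genes above 0 ran Clamp, Sxl, mle, msl-1, msl-3, msl-2, mof and dsx. The roX RNAs were left out of the order, since the roX2 limits lie above msl-2 in every library and the roX1 limits above dsx. Neighbours in this order were compared within libraries as higher minus lower, in 7 pairs. The pairs and their direction were taken from the means of these same libraries, which favours positive differences. A difference was taken as beyond the spread where it had the same sign in 3 of 3 libraries and its mean exceeded its SD. That held for 3 pairs. Clamp exceeded Sxl by 0.69 ± 0.27 on the log2(FPKM + 1) scale, with a ratio of fragments per exon base of 1.61 (95% exact interval 1.29 to 2.01). Sxl exceeded mle by 0.80 ± 0.27, with a ratio of 1.81 (1.37 to 2.41). mof exceeded dsx by 1.16 ± 1.01, with a ratio of 16.2 (4.64 to 86.9) that rests on 16 and 3 fragments. This last difference was 0.59 without replicate 3 and 2.56 with a pseudocount of 0.1. As TPM with rRNA-named genes in the sum, at 0.81 ± 0.85, it no longer exceeded its SD. In replicate 1 mof and dsx had 1 fragment each, so the sign there comes from their exon lengths of 3014 and 9167 bases. In replicate 2 they had 2 and 1 fragments. The 95% exact intervals of mof and dsx overlapped in replicates 1 and 2, so the same sign in 3 of 3 libraries says little for this pair.

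The other 4 pairs did not differ beyond their spread. mle minus msl-1 was 0.14 ± 0.37, with a ratio of 1.15 (0.803 to 1.65), and msl-1 minus msl-3 was 0.39 ± 0.69, with a ratio of 1.18 (0.708 to 2.03). msl-3 minus msl-2 was 0.71 ± 0.68, higher in 2 of 3 libraries, although the ratio of 2.28 (1.15 to 4.53) lay above 1 beyond counting error. msl-2 minus mof was 0.28 ± 1.04, while its ratio of 0.882 (0.425 to 1.85) leaned the other way. The largest mof value came from the deepest library, which weighs most in that ratio. The exact sign-flip permutation p was 0.25 for each of the 3 pairs beyond the spread and between 0.5 and 1 for the rest (n = 3, two-sided). After Benjamini-Hochberg adjustment over the 7 pairs it was 0.583 at the lowest, and no pair could pass 0.05 in this design.

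**Figure D3:**
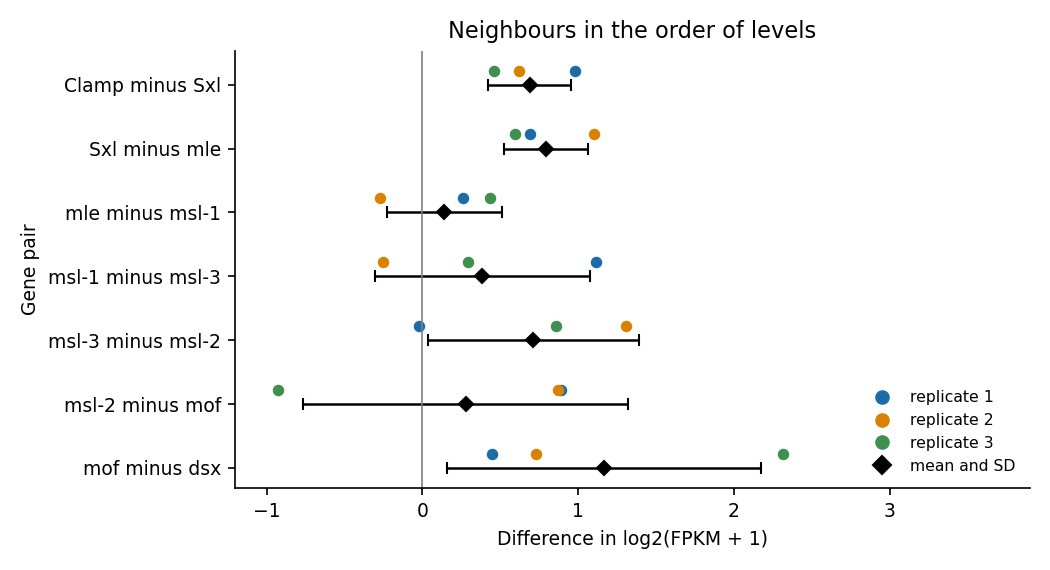
Within-library differences in log2(FPKM + 1) between genes next to each other in the order of levels, higher minus lower, for 7 pairs. Coloured dots are the 3 libraries and black diamonds with bars the mean and SD; Clamp minus Sxl, Sxl minus mle and mof minus dsx have all 3 dots right of 0.

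RNA was found for each gene listed whose protein works with the complex, or with Sxl on msl-2. Of the 9 genes, 9 were at 1 FPKM or more in every library, against 40.1% of protein-coding genes. The 9 had a median of the mean log2(FPKM + 1) of 2.96, against 0.73 over protein-coding genes. Hrb27C, an hnRNP protein that helps Sxl repress msl-2 RNA, was highest at 61.7, 48.5 and 56.7 FPKM in replicates 1, 2 and 3. JIL-1, a histone H3 kinase enriched on the male X, had 19.9, 12.2 and 22.2 FPKM. Mgtor, a nuclear pore protein found with the MSL complex, had 14.7, 7.60 and 15.0 FPKM. Unr, the partner of Sxl protein in blocking msl-2 translation, had 7.14, 5.67 and 12.5 FPKM, and was named after its values were seen. At the low end were the nucleosome remodeller gene Iswi at 2.74, 1.51 and 3.48 FPKM and Trl, the gene of the GAGA factor, at 2.88, 2.20 and 2.54 FPKM. Trl shares 77.8% of its exon bases with other genes, which leaves its level uncertain.

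The NSL complex uses the mof protein outside dosage compensation. All 6 of its other genes were at 1 FPKM or more in every library, against 40.1% of protein-coding genes. The 6 had a median of 3.31 on the log2(FPKM + 1) scale, against 0.73 over protein-coding genes. Rcd5 had 14.4, 19.1 and 25.5 FPKM in replicates 1, 2 and 3, Rcd1 had 9.18, 11.3 and 12.5, and the scaffold gene nsl1 had 12.2, 8.19 and 9.05. The lowest were dgt1 at 3.16, 4.34 and 5.42 FPKM and wds, which encodes a WD-repeat protein shared with other chromatin complexes, at 4.06, 6.27 and 5.36 FPKM. All 6 were above mof in every library.

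Of the 23 regulators of Sxl, tra and dsx looked up, 16 were at 1 FPKM or more in every library and 4 were at 0 in all of them. Their median of the mean log2(FPKM + 1) was 2.71, against 0.73 over protein-coding genes. Among protein-coding genes 40.1% were at 1 FPKM or more in every library, and 4461 of 13829 were at 0. The X signal elements, which count X chromosomes in the early embryo, gave almost no fragments here: sisA, run and upd1 had 0 fragments, and sc, named after its values were seen, had 1, in replicate 2. dpn, an autosomal counterpart of those elements, was also listed at 0, although 59.3% of its exon bases lie opposite an antisense RNA.

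Genes for the splicing of Sxl RNA ran from the top of the list to below its median of 5.70 FPKM. snf, a small nuclear ribonucleoprotein gene needed for Sxl splicing, led the list at 26.4, 32.9 and 31.7 FPKM in replicates 1, 2 and 3. Flacc, a subunit of the complex that methylates adenosines in RNA, had 28.0, 25.5 and 24.5 FPKM. All 7 genes of that methylation machinery and its reader, Flacc among them, were at 1 FPKM or more in every library. Of protein-coding genes 40.1% were. The means of the 7 lay between 2.30 FPKM and 26.0 FPKM. The lowest of them was Mettl3, named after its values were seen.

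The genes tra, tra2, ix and fru were lower than snf and Flacc in every library, and are named here after their values were seen. tra, which Sxl protein switches to its female splice form, had 2.32, 9.57 and 7.36 FPKM in replicates 1, 2 and 3, of which the first is a single fragment. tra2, its partner in splicing, had 2.17, 5.96 and 7.46 FPKM. ix, whose protein works with the female dsx product, had 8.26, 11.3 and 11.6 FPKM. fru, a target of the tra product in the nervous system, had 0.543, 0.895 and 2.07 FPKM from 53 fragments over 18433 exon bases. ix and fru thus had more fragments than the 3 of dsx.

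**Figure D4:**
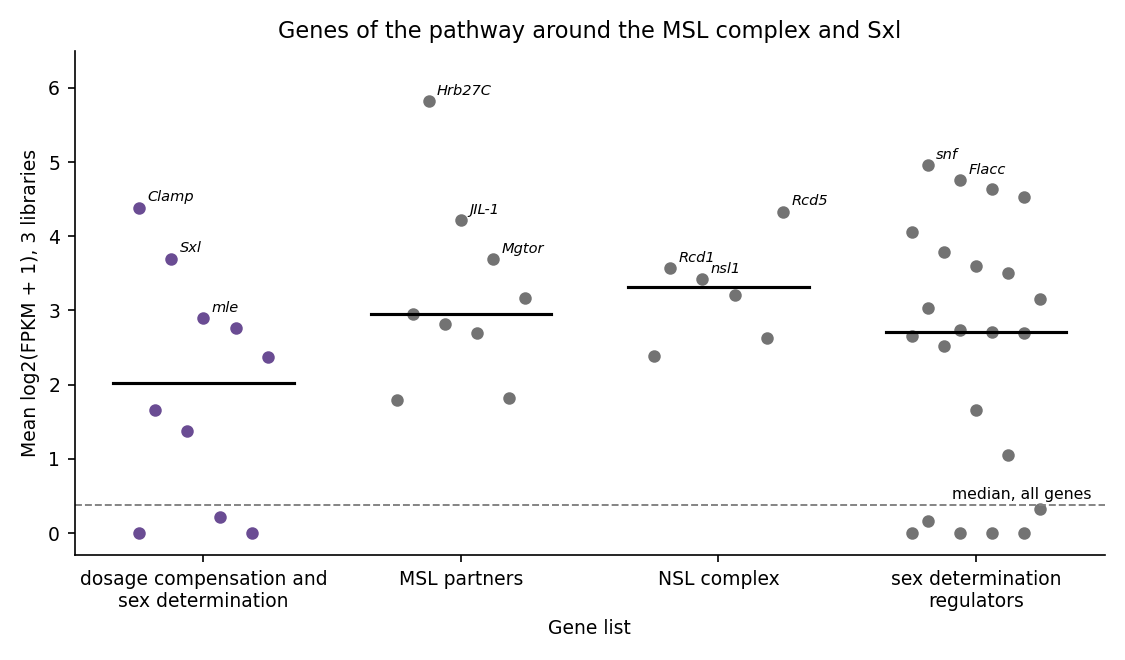
Mean log2(FPKM + 1) over the 3 libraries for each gene of 4 lists, with the list median as a black bar and the median of all genes as a dashed line. Among the highest genes of each list, 2 or 3 are named; the medians are 2.02 for the dosage compensation and sex determination genes, 2.96 for MSL partners, 3.31 for NSL genes and 2.71 for the regulators.

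The X chromosome, on which the complex acts in males, carries 4 of the 10 genes: mof, Sxl and both roX genes. It holds 15.3% of all matched genes. Another 3 members (msl-1, msl-2, Clamp) lie on 2L. On the minus strand lie 9 of the 10 genes, all but roX2, against 49.7% of matched genes.

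Genes of the X as a whole had levels close to those of the autosomes. Among genes averaging 1 FPKM or more, the 1192 X genes had medians of 9.03, 8.48 and 8.01 FPKM in replicates 1, 2 and 3, and the 5796 genes of 2L, 2R, 3L and 3R had medians of 7.77, 8.04 and 8.0 FPKM. On the log2(FPKM + 1) scale the difference of medians, X minus autosomes, was 0.19, 0.07 and 0.00, a mean of 0.088 ± 0.098 (SD, n = 3). It did not exceed its spread over the libraries. With a minimum of 5 FPKM the difference turned to -0.043 ± 0.051, and with no minimum it was 0.364 ± 0.362. Genes are not replicates, and no test over genes was made. Compensated males and females can have similar X levels, so this difference does not bear on the sex of the larvae.

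**Figure D5:**
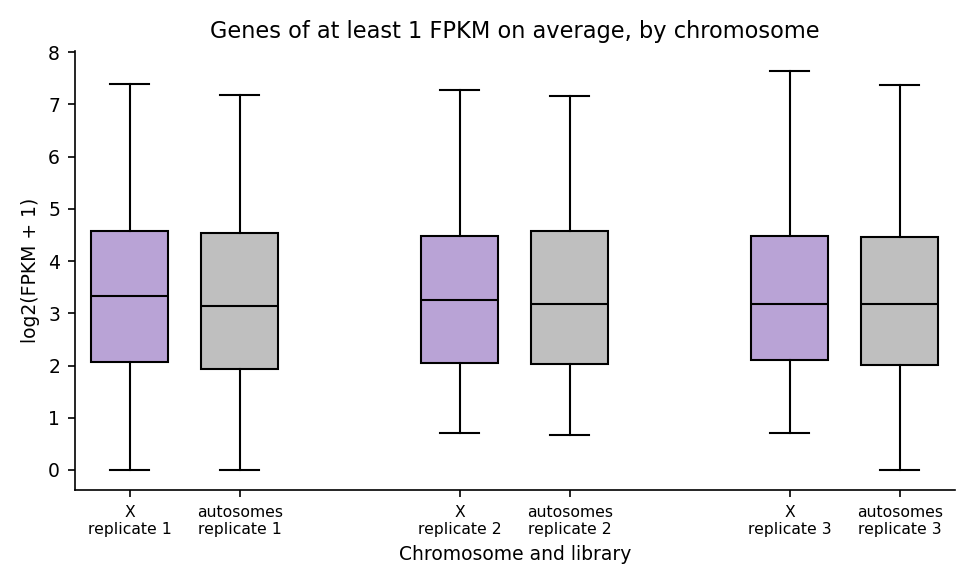
Distribution of log2(FPKM + 1) for genes of the X and of chromosome arms 2L, 2R, 3L and 3R in each library, for genes of at least 1 FPKM on average. Boxes span the quartiles with the median as a line and whiskers the 5th to 95th percentile; the medians of X and autosomes differ by 0.19, 0.07 and 0.00 in replicates 1, 2 and 3.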

How the data were processed

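Poly(A) RNA was taken from salivary glands with TRIZOL, and 500 ng entered a directional library kit, per the labels' protocols. HISAT2 and DESeq are named without versions, per the submitters' processing notes. The authors deposited FPKM, 1 value per gene and library; the name of the deposited table marks paired-end, unstranded counting, so a gene and an antisense partner cannot be separated. The build, annotation and counting program were not stated in the sources used here.

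Of the 17278 identifiers, 17142 were found in the Ensembl annotation BDGP6.54 (release 115), and coordinates and names are from it. Multiplying FPKM by the summed exon length gave whole multiples of 1 step per library, within 0.01, for 98.7% to 98.8% of values above 0. Fragments came from that step, which corresponds to 499875, 727436 and 945562 fragments as the denominators of replicates 1, 2 and 3. These are fewer than the fragments recovered in each library. The recovery was also tested on simulated data. A count of 0 was taken to allow 3 fragments per library. The 95% intervals are exact (Poisson for a level, binomial for a ratio) and cover counting error only. No count model was fitted, there being 1 group.

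Levels were compared as log2(FPKM + 1), which understates differences of low genes. The 10 members and all lists were chosen with earlier results of these data known. Named are all members, the 3 highest and 2 lowest genes of each list, the 3 genes nearest to the highest member, and any Y gene above 0, except 1 gene that is not reported here; other names are marked as chosen after their values were seen, or are marker genes and neighbours of the roX genes. flacc, Mtor and nos were looked up as Flacc, Mgtor and nanos by their RefSeq synonyms. Alternatives were other limits, a pseudocount of 0.1, TPM with and without rRNA-named genes, median-ratio scaling and each library left out. Scripts ran in Python 3.11.15 with scipy 1.17.1, pandas 2.3.3, numpy 2.4.6 and matplotlib 3.10.9.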

Additional observations from a re-analysis of the deposited data

How the results depend on the processing

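Depth limits these results, since 9 of the 10 genes had 122 or fewer fragments over the 3 libraries. The count of 6 members at 1 FPKM or more was 7 at a limit of 0.5 FPKM, 5 at 2 FPKM and 8 with any value above 0. It was 4 as TPM with rRNA-named genes in the sum, where msl-2 and msl-3 dropped out. The same 6 genes were counted without each library in turn and as TPM without rRNA-named genes. They were also counted under median-ratio scaling, an alternative added after seeing the data. Its factors of 1.05, 0.959 and 0.975 in replicates 1, 2 and 3 left levels close to the deposited ones, so little change could follow. The counts of the other 3 lists stayed within 1.5 times of theirs under every setting run. Of 49 recomputed pair differences, 46 kept their sign. Clamp minus Sxl and Sxl minus mle stayed beyond their spread under every setting run. mof minus dsx did too, except as TPM with rRNA-named genes (0.81 ± 0.85), and was 2.56 with a pseudocount of 0.1 and 0.59 without replicate 3. With 2 libraries left, 4 pairs came to lie beyond their spread: mle minus msl-1 (0.35) and msl-1 minus msl-3 (0.70) without replicate 2, msl-3 minus msl-2 (1.08) without replicate 1 and msl-2 minus mof (0.88) without replicate 3. mle minus msl-1 ranged from -0.0051 to 0.35 and msl-2 minus mof from -0.026 to 0.88 when 1 library was left out, with negative values without replicate 3 for the first pair and without replicates 1 or 2 for the second. X minus autosomes ranged from 0.067 to 0.17 without 1 library, was -0.043 with a minimum of 5 FPKM and 0.364 with no filter on low values; the cause was not tested. TPM lowered all levels together, that of Clamp to 9.66 and that of Sxl to 5.93, by more than 1.5 times, and leaves ratios between genes of a library as they are. No analysis paired between groups was possible because there is 1 group.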

Other observations

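The Lsp1 larval serum protein genes, expressed by the fat body next to the glands, differed in balance between the libraries. Lsp1alpha, which lies on the X and is known as a gene that escapes dosage compensation, had 270, 298 and 979 FPKM in replicates 1, 2 and 3. Its autosomal relatives Lsp1beta and Lsp1gamma had 416, 593 and 820 FPKM and 557, 798 and 1331 FPKM. Lsp1alpha stood at 0.649, 0.502 and 1.19 times Lsp1beta, and at 0.485, 0.374 and 0.736 times Lsp1gamma. Lsp1beta itself stood at 0.746, 0.744 and 0.616 times Lsp1gamma. These ratios were chosen after the values were seen, do not depend on library scaling, and were not tested.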
